A study of Homo sapiens with 12 samples.

Results

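The genes described here make, bind and break down hyaluronan in AsPC-1, an established human cell line from pancreatic ductal adenocarcinoma. They are the synthases *HAS2* and *HAS3*, the receptors *CD44* and *HMMR*, the depolymerase *CEMIP* with its relative *CEMIP2*, and the hyaluronidases *HYAL1*, *HYAL2* and *HYAL3*: 9 of 57820 gene identifiers in the count tables. They were selected on their place in the pathway, with their levels in all groups and their changes in both comparisons in view, so the values of those comparisons describe them and are no independent evidence. RNA was sequenced after rRNA depletion in 12 libraries, 3 for each of 4 groups. SiBACH1 cells had received a small interfering RNA against *BACH1* 24 h before harvest, with siCont cells as its controls. SgBACH1 cells carried a lentiCRISPR v2 virus with a guide RNA against *BACH1*, and sgCont cells are the controls of the knockout experiment. The protocol given for both of these groups selects infected cells in puromycin at 10 µg/ml, and it does not describe the virus of sgCont cells. BACH1 is a heme-regulated transcriptional repressor, and the study searched for genes under its control. The labels describe the knockout with 1 guide sequence and mention no isolation of clones, and they do not state that replicates come from separate cultures. The p-values therefore reflect the scatter of these libraries, which could be technical.

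Hyaluronan is a long, unsulfated sugar polymer of the extracellular matrix, built at the plasma membrane from UDP-glucuronic acid and UDP-*N*-acetylglucosamine by the hyaluronan synthases and pushed directly out of the cell. CD44 holds it at the cell surface, and HMMR (also called RHAMM) binds it and also acts inside the cell at the mitotic spindle. HYAL2 at the cell surface and HYAL1 in lysosomes cut it, and CEMIP (also called KIAA1199 or HYBID) is needed for a separate route of hyaluronan breakdown. Pancreatic ductal adenocarcinoma is known for a stroma rich in hyaluronan.

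The libraries held between 13099706 and 21478886 counts. *BACH1* transcripts fell by 3.15 ± 0.17 on the log2 scale (SE) in siBACH1 and by 0.48 ± 0.08 in sgBACH1, and *HMOX1*, the heme-degrading enzyme that BACH1 represses, rose by 4.70 ± 0.10 and by 5.70 ± 0.13. A count over the whole gene does not measure how much BACH1 protein an edited gene still gives. Of the siCont libraries, replicate 2 stood apart: its counts differed from those of replicates 1 and 3 with a chi-square per degree of freedom of 27.3 and 31.9, against 8.09 between replicates 1 and 3. All 7 markers of pancreatic ductal cells were present. Their summed level was between 12624 and 12928 CPM (counts relative to library size) in siBACH1 and between 11219 and 12838 CPM in siCont, and between 12112 and 13750 CPM in sgBACH1 against 18886 to 20515 CPM in sgCont. The acinar, endocrine and blood and endothelial lists summed to at most 3.52 CPM in any library, with *INS*, *GCG* and *SST* at 0 throughout. The 7 fibroblast markers summed to between 334 and 362 CPM in siBACH1, between 290 and 301 CPM in siCont, between 46.2 and 51.7 CPM in sgBACH1 and between 115 and 139 CPM in sgCont. That sum is nearly all *LUM*, and no other fibroblast marker passed 0.989 CPM in any library. The ductal sum and *LUM* were both lower in sgBACH1 than in sgCont, beside the knockout changes below, and their part in those changes was not tested.

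The promoter windows of 3 genes are shown: *CEMIP* and *HAS3* because of the 9 genes they differed most between sgBACH1 and sgCont, and *CD44* because its window holds a rare variant of the sequence that BACH1 and NRF2 share with small MAF proteins. Each runs from 250 bases before to 50 bases after the start of transcription given by RefSeq (GRCh38.p14), 5′ to 3′ on the strand of the gene, and capitals mark every match on either strand to TGANNNNGC, the loose form of that sequence. All 3 genes lie on the plus strand, at chr15:80779120-80779419, chr16:69107290-69107589 and chr11:35138921-35139220 in the order given.
CEMIP: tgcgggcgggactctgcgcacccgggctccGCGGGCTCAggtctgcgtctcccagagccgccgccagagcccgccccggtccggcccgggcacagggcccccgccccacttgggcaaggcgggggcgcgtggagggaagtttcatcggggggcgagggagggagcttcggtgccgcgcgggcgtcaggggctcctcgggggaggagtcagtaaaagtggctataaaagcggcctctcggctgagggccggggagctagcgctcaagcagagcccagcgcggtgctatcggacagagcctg
HAS3: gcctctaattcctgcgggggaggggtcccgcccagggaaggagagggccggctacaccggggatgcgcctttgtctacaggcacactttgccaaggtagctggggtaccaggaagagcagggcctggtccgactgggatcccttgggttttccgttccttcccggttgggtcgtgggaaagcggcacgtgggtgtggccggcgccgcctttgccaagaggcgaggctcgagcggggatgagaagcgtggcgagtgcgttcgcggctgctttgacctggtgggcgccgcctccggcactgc
CD44: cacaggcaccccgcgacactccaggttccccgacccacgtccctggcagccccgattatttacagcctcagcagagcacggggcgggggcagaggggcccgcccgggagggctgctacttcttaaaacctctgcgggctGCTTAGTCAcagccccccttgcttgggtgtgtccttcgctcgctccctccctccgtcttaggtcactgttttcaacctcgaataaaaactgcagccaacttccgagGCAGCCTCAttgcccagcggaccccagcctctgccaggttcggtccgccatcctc
Counting from the RefSeq start to the leftmost base as printed, the match in the *CEMIP* window begins at position -220 and reads TGAGCCCGC on the opposite strand. The *CD44* window holds TGACTAAGC beginning at position -111 and TGAGGCTGC beginning at position -5, both on the opposite strand. No match lies in the *HAS3* window. The loose form is common, since 41.84% of 35116 RefSeq promoter windows of this length hold it. The strict form TGACTCAGC stands in 0.56% of the windows and in none of those of the hyaluronan genes. TGACTAAGC, which is contained in the loose form and was searched for after the windows had been seen, stands in 0.10% of the windows. *HYAL3* was the other hyaluronan gene with a loose match. No match was recorded for *HAS2*, and whether a window of that gene was among those searched is not shown. A match to these letters is not a measured binding site.

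**Figure D1:**
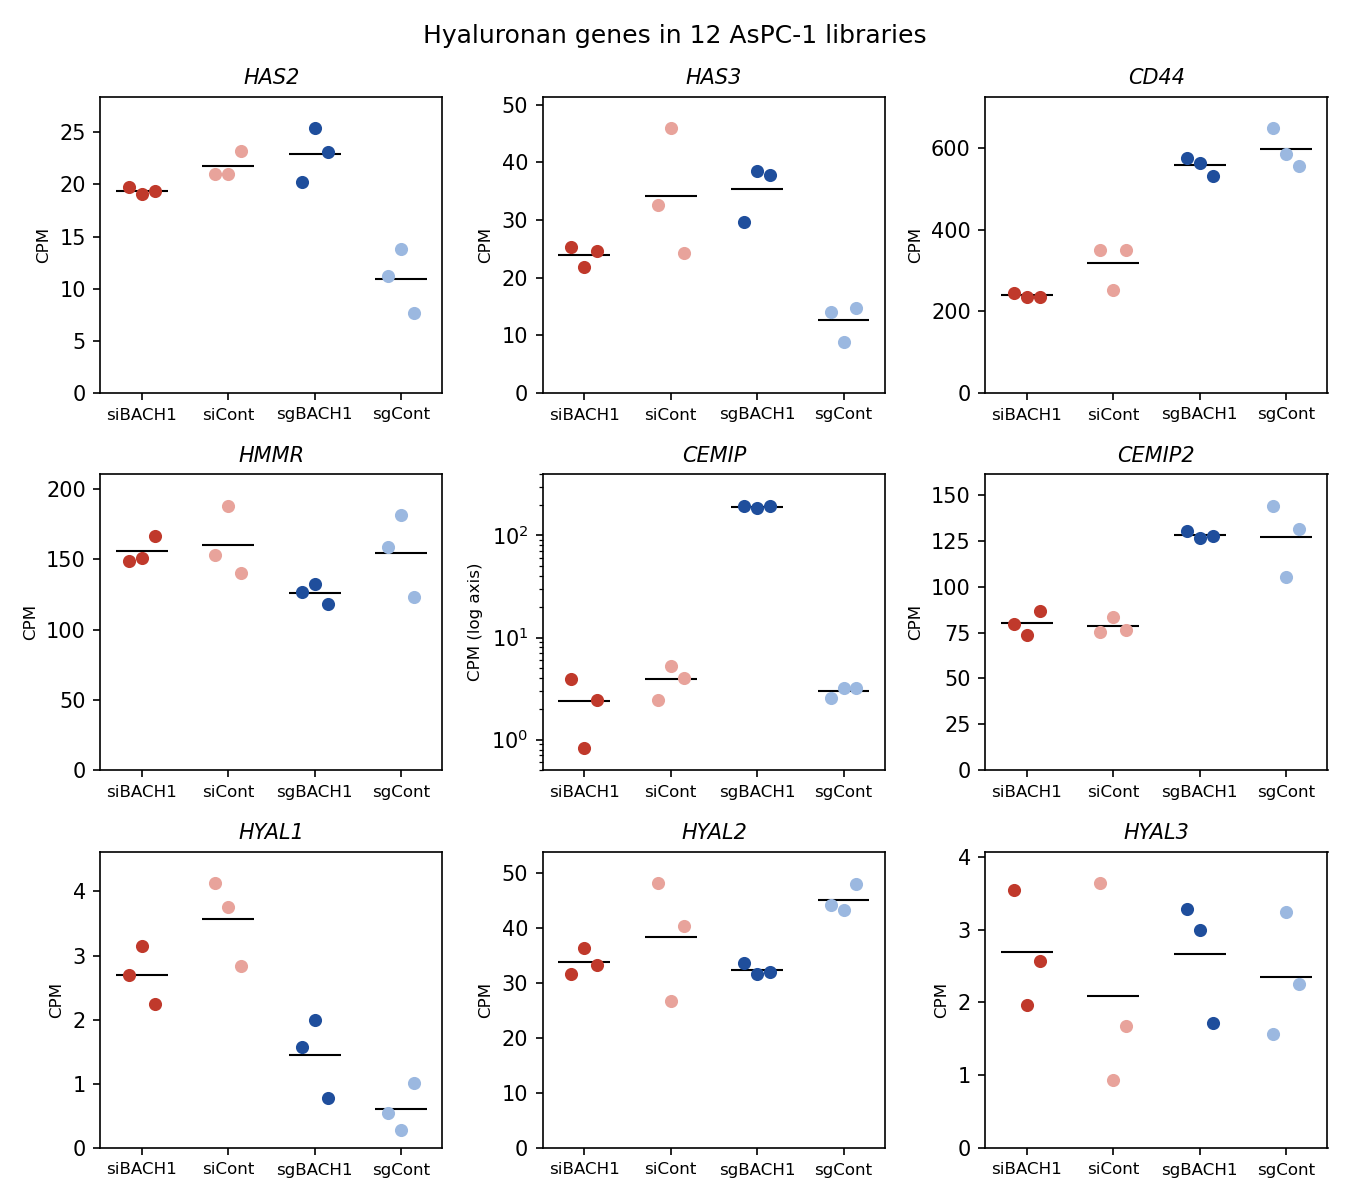
Level of each of the 9 hyaluronan genes in CPM in each of the 12 libraries. Points are libraries, black lines are means of 3, and the axis of *CEMIP* alone is logarithmic. The 3 sgBACH1 libraries of *CEMIP* lie between 184 and 197 CPM, and no library of the other groups passes 5.25 CPM.

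Both measured synthases stood higher in sgBACH1 than in sgCont, and neither rose in siBACH1. *HAS2* makes very long hyaluronan chains and is the synthase needed for mouse development. Its level was 20.2, 25.4 and 23.2 CPM in sgBACH1, against 11.2, 13.8 and 7.70 CPM in sgCont. The groups did not overlap, group means came to 22.9 ± 2.60 and 10.9 ± 3.08 CPM (SD, n = 3 each), and the log2 fold change was 1.07 ± 0.20 (SE), 2.103-fold. In the siRNA experiment *HAS2* stood at 19.8, 19.1 and 19.4 CPM in siBACH1, against 20.99, 20.99 and 23.3 CPM in siCont. Every siBACH1 library was lower than every siCont library, but by only 0.18 ± 0.11 on the log2 scale, which was not called (edgeR adjusted p = 0.293). A gene is called here at an adjusted p below 0.05 from edgeR's quasi-likelihood test, adjusted over all genes tested.

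*HAS3* (chr16:69105564-69118719, plus strand, GENCODE 29 on GRCh38), whose enzyme makes shorter chains, showed the same order of groups with a larger difference in the knockout. It stood at 29.6, 38.4 and 37.8 CPM in sgBACH1, against 14.1, 8.83 and 14.8 CPM in sgCont. The lowest sgBACH1 library was above the highest sgCont library, group means came to 35.3 ± 4.91 and 12.6 ± 3.25 CPM (SD, n = 3 each), and the log2 fold change was 1.48 ± 0.18 (SE), 2.79-fold. In siBACH1 it stood at 25.3, 21.9 and 24.6 CPM, against 32.5, 45.9 and 24.2 CPM in siCont. The siCont libraries spread widely and replicate 3 lay within the siBACH1 range. The log2 fold change of -0.52 ± 0.20 missed the threshold (edgeR adjusted p = 0.0947), and it ranged from -0.73 without siCont replicate 3 (adjusted p = 0.0149) to -0.26 without siCont replicate 2, the library that stood apart. Fewer cells of a type and less RNA per cell cannot be told apart in bulk RNA.

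Levels of different genes can be compared only per length, here as counts per kilobase of merged exon, scaled to 1 common sum over all genes in every library. CPM carry TMM scaling and these units do not. On that scale *HAS2* and *HAS3* together came to 15.7, 20.0 and 20.0 units in sgBACH1, against 8.84, 8.06 and 7.14 units in sgCont. All sgBACH1 libraries lay above all sgCont libraries. The sums were 16.9, 15.9 and 18.5 units in siBACH1 and 17.7, 22.2 and 20.1 units in siCont, so the sgCont libraries had the lowest synthase sums of the 12. The 2 control groups come from separate experiments and were not tested against each other. *HAS3* made up 53.7%, 54.5% and 56.4% of the sum in sgBACH1 and 49.97%, 33.6% and 60.3% in sgCont. It made up 50.3%, 47.6% and 50.2% in siBACH1 and 55.1%, 63.4% and 45.2% in siCont, and the groups of each experiment overlapped in this share. The third synthase gene, *HAS1*, had 12 counts over all 12 libraries and at most 2 in any one, too few to pass the filter on low counts.

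**Figure D2:**
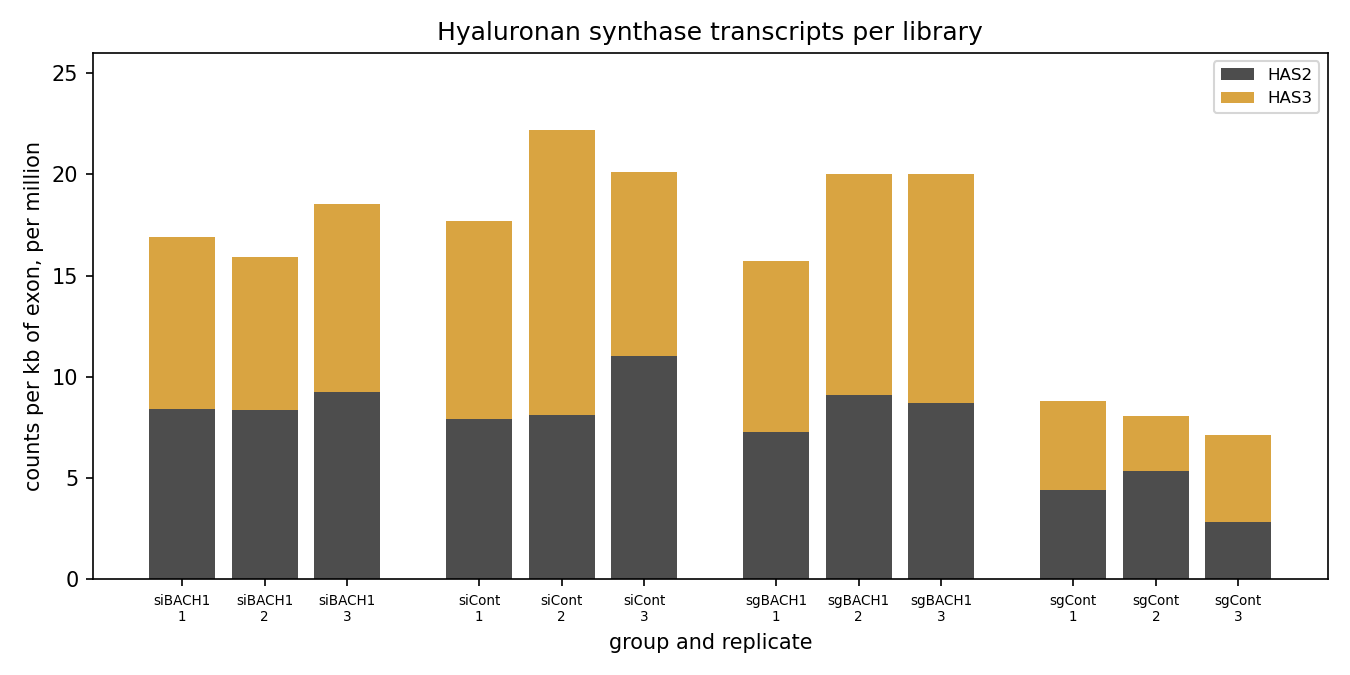
Per-length levels of *HAS2* and *HAS3*, stacked, in each library (counts per kilobase of exon, scaled to 1 common sum in every library). The 3 sgCont bars, from 7.14 to 8.84 units in all, are the shortest of the 12, and the 3 sgBACH1 bars reach 15.7 to 20.0 units.

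In the knockout the receptors differed less than the synthases. *CD44* (chr11:35138870-35232402, plus strand, GENCODE 29 on GRCh38) encodes the main hyaluronan receptor of the cell surface. It stood at 246, 235 and 236 CPM in siBACH1, against 351, 252 and 349.8 CPM in siCont. Every siBACH1 library was below every siCont library, with siCont replicate 2 closest to them. Group means came to 239 ± 6.16 and 317 ± 56.9 CPM (SD, n = 3 each), and *CD44* fell by 0.42 ± 0.12 on the log2 scale (SE, edgeR adjusted p = 0.0332). That call depended on the libraries used: the log2 fold change was -0.56 without it (adjusted p = 2.46e-08), and without any one of the other 5 libraries *CD44* was not called (adjusted p between 0.0928 and 0.1226). In the knockout experiment *CD44* stood at 576, 565 and 532 CPM in sgBACH1, against 649, 587 and 557 CPM in sgCont. The groups overlapped, and the log2 fold change of -0.10 ± 0.07 was not called.

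*HMMR* (chr5:163460203-163491945, plus strand) stood at 149, 151 and 167 CPM in siBACH1, against 154, 188 and 140.1 CPM in siCont, which overlapped (log2 -0.05 ± 0.11). It stood at 127, 132 and 118 CPM in sgBACH1, against 159, 181 and 123.3 CPM in sgCont. The groups overlapped, since sgCont replicate 3 lay within the sgBACH1 range. *HMMR* fell by 0.30 ± 0.10 on the log2 scale in the knockout (SE, edgeR adjusted p = 0.04), but was called after leaving out 1 library in only 1 of 6 cases, that of sgCont replicate 3 (-0.43, adjusted p = 0.00168). *HMMR* is known to be transcribed in the cell cycle with the genes of mitosis, and 20 of these were set beside it. By edgeR 0 rose (1 at an unadjusted p below 0.05) and 3 fell in sgBACH1, *PLK1* (a mitotic kinase, log2 -0.64), *TPX2* (a spindle assembly factor that binds HMMR, -0.31) and *PRC1* (a microtubule bundler of the dividing spindle, -0.25). In siBACH1 7 rose and 3 fell, the largest being *KIF20A* (a mitotic kinesin, 0.59), *BUB1B* (a spindle checkpoint kinase, 0.52) and *AURKB* (a mitotic kinase, 0.50). Those siRNA counts were 10 and 4 without siCont replicate 2, a fit in which 2513 of all 15112 tested genes rose and 2608 fell. Among all tested genes, with every library used, 11.3% rose and 12.3% fell in sgBACH1, and 10.9% rose and 13.0% fell in siBACH1. The median log2 fold change of the 20 was 0.17 in siBACH1, where that of all genes tested was 0.005, and -0.05 in sgBACH1, where that of all genes was 0.006.

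*CEMIP* (ENSG00000103888.11, chr15:80779343-80951776, plus strand) differed most. It stood at 197, 184 and 195 CPM in sgBACH1, against 2.54, 3.18 and 3.20 CPM in sgCont. These are 3238, 2952 and 3974 counts beside 47, 45 and 54, and no sgCont library came near the sgBACH1 range. Group means came to 192 ± 6.64 and 2.97 ± 0.377 CPM (SD, n = 3 each), and the log2 fold change was 6.02 ± 0.12 (SE), 64.7-fold, at rank 20 of 14469 tested genes by size. The value stayed between 5.90 and 6.08 with any one library left out. In the siRNA experiment *CEMIP* remained a low transcript, at 3.90, 0.837 and 2.43 CPM in siBACH1, against 2.45, 5.25 and 4.05 CPM in siCont. The groups overlapped and the log2 fold change of -0.74 ± 0.49 was not called (edgeR adjusted p = 0.318).

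*CEMIP2* (chr9:71683366-71816690, minus strand), also called TMEM2, encodes a cell surface relative of CEMIP whose activity on hyaluronan is described for the mouse protein. It stood at 79.8, 73.6 and 86.5 CPM in siBACH1, against 75.2, 83.3 and 76.5 CPM in siCont. It stood at 130.5, 127 and 127 CPM in sgBACH1, against 144, 105 and 131 CPM in sgCont. Both pairs of groups overlapped, and the log2 fold changes were 0.02 ± 0.09 and 0.01 ± 0.10 (SE). Both standard errors are small beside the knockout values of the synthases.

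The 3 hyaluronidase genes lie side by side on chromosome 3, on the minus strand between positions 50292831 and 50322906. Of the 3, *HYAL2* alone had a call in either comparison. *HYAL2*, whose product is anchored to the cell surface and cuts long chains, was the most abundant. It stood at 33.6, 31.5 and 31.9 CPM in sgBACH1, against 44.1, 43.2 and 47.9 CPM in sgCont. The groups did not overlap, and *HYAL2* fell by 0.48 ± 0.12 on the log2 scale (SE, edgeR adjusted p = 0.00478). In siBACH1 it stood at 31.5, 36.3 and 33.2 CPM, against 48.1, 26.6 and 40.3 CPM in siCont. The groups overlapped only through siCont replicate 2, and the log2 fold change was -0.20 ± 0.18 with that library and -0.40 without it (adjusted p = 0.488 and 0.00355).

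*HYAL1*, the lysosomal enzyme, was a rare transcript. It had 26, 32 and 16 counts in sgBACH1 (1.58, 2.00 and 0.783 CPM), against 10, 4 and 17 counts in sgCont (0.540, 0.283 and 1.01 CPM). The groups overlapped, and the log2 fold change of 1.22 ± 0.69 was not called (edgeR adjusted p = 0.225). In the siRNA experiment it stood at 2.70, 3.15 and 2.24 CPM in siBACH1, against 4.13, 3.76 and 2.83 CPM in siCont (log2 -0.41 ± 0.27, not called). *HYAL3*, a relative whose own activity on hyaluronan is uncertain, stood at 3.54, 1.97 and 2.57 CPM in siBACH1, against 3.64, 0.940 and 1.68 CPM in siCont. It stood at 3.28, 3.00 and 1.71 CPM in sgBACH1, against 1.57, 3.25 and 2.25 CPM in sgCont. Both pairs overlapped, and the log2 fold changes of 0.35 ± 0.46 and 0.18 ± 0.48 were not called. With 1 library left out, the siRNA value of *HYAL3* ran from 0.01 without siCont replicate 2 to 0.98 without siCont replicate 1, and was called in 0 of 6 fits. *HYAL4* had 29 counts and *SPAM1* 6 over all 12 libraries, and neither passed the filter on low counts with every library used.

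All 9 genes passed the filter on low counts in both experiments. In the siRNA comparison 0 of 9 rose and 1 fell (*CD44*), where 10.9% of 14591 tested genes rose and 13.0% fell. With edgeR at an unadjusted p below 0.05, and with DESeq2 and limma-voom, the number that rose was also 0. The groups did not overlap for 2 of the 9 (*CD44* and *HAS2*), against 42.3% of all genes tested. In the knockout comparison 3 of 9 rose (*CEMIP*, *HAS2*, *HAS3*) and 2 fell (*HYAL2*, *HMMR*), where 11.3% of 14469 tested genes rose and 12.3% fell. The groups did not overlap for 4 of the 9, against 36.6% of all genes tested. The median log2 fold change of the 9 was -0.20 in siBACH1 and 0.18 in sgBACH1. The genes were selected with these values in view, and nothing is read from the counts beside the background.

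The responses to the 2 ways of lowering BACH1 were set against each other in 1 fit of all libraries, as the siRNA log2 fold change minus the knockout log2 fold change. The difference was -6.76 ± 0.45 for *CEMIP* (SE, edgeR adjusted p = 1.30e-08), -1.99 ± 0.30 for *HAS3* (adjusted p = 9.77e-05) and -1.24 ± 0.25 for *HAS2* (adjusted p = 0.00126). These 3 were called after leaving out any one of the 12 libraries. They are 3 of 9 with the siRNA response below the knockout response, a direction called for 13.0% of 15644 tested genes, and 0 of 9 were called in the opposite direction (also 0 at an unadjusted p below 0.05 and with DESeq2 and limma-voom), against 10.6%. The siRNA and knockout experiments share no control libraries, but the genes were selected on the same contrasts, so these tests describe the size of the difference. For *HYAL1* the difference was -1.61 ± 0.65 (adjusted p = 0.084), and it was called without sgBACH1 replicate 3 (-1.92) or sgCont replicate 3 (-2.16). For *CD44* it was -0.31 ± 0.15 (adjusted p = 0.145), and -0.46 without siCont replicate 2 (adjusted p = 0.000822). *CEMIP2*, *HMMR*, *HYAL2* and *HYAL3* differed by between 0.02 and 0.29, none of them called.

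**Figure D3:**
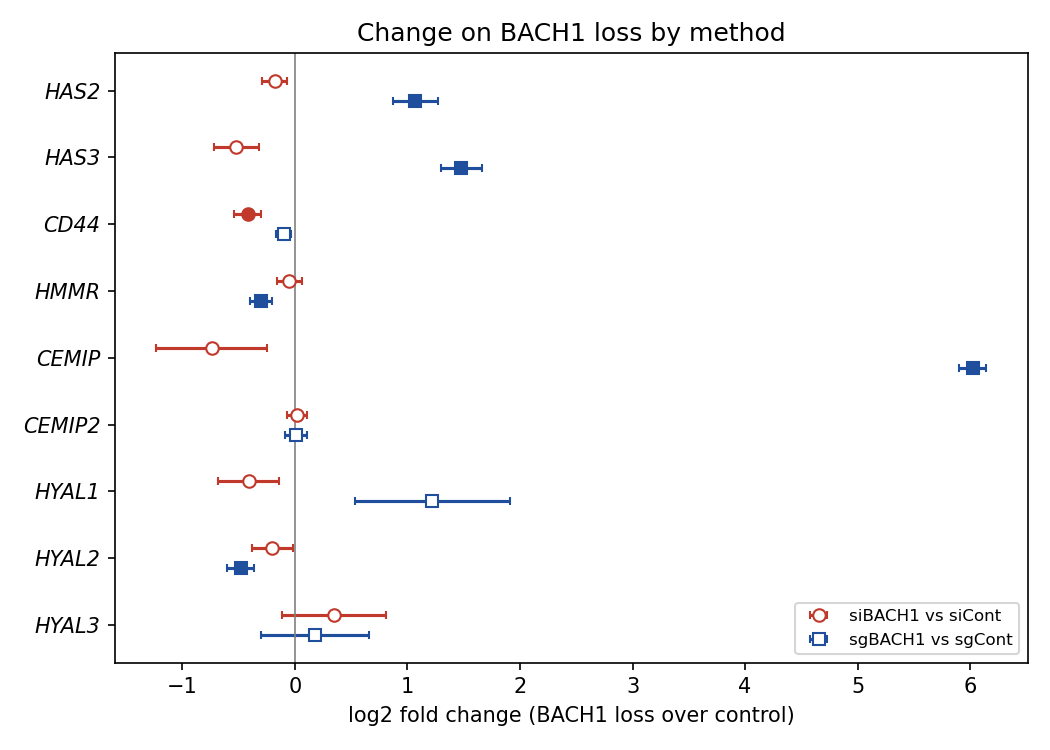
Log2 fold change with its standard error for each hyaluronan gene, siBACH1 over siCont (circles) and sgBACH1 over sgCont (squares). Filled symbols passed an adjusted p below 0.05. *CEMIP*, *HAS3* and *HAS2* lie to the right only for the knockout, at 6.02, 1.48 and 1.07.

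Per length, the order of the 9 genes within each group was led by the receptors. In sgBACH1 *CD44* led at 85.3 ± 1.47 units (SD, n = 3), followed by *HMMR* at 48.9 ± 1.497, *CEMIP* at 38.5 ± 2.05 and *CEMIP2* at 20.4 ± 0.591, each separate from the next in all libraries. In sgCont *CD44* led at 96.2 ± 10.9 units, followed by *HMMR* at 63.4 ± 13.6, *CEMIP2* at 21.2 ± 3.52 and *HYAL2* at 15.9 ± 0.435, and *CEMIP* was the eighth of the 9 at 0.625 ± 0.0652. *CEMIP* was thus the third gene of the family in sgBACH1 and the last but one in sgCont. In siBACH1 *HMMR* led at 74.2 ± 9.17 units, above *CD44* at 44.7 ± 2.15, and *CEMIP* was last at 0.583 ± 0.357. In siCont the libraries of *HMMR* at 70.0 ± 7.86 and of *CD44* at 55.3 ± 14.3 units overlapped, and *CEMIP* was again last at 0.894 ± 0.334. *HAS2* and *HAS3* did not separate from each other in any of the 4 groups.

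Of 40 other genes that supply, bind or clear hyaluronan, 17 were measured well enough to be tested in both experiments. In siBACH1 4 rose, 6 fell and 7 were not called, where 10.9% of all tested genes rose and 13.0% fell. The median log2 fold change of the 17 was -0.13. In sgBACH1 2 rose, 5 fell and 10 were not called, where 11.3% of all tested genes rose and 12.3% fell. The median of the 17 was 0.00. These genes were also chosen with earlier results known, and nothing is read from their counts beside the background. Without siCont replicate 2 the siRNA counts were 5 rising and 7 falling of 18 tested. In that fit 2513 of all 15112 tested genes rose and 2608 fell, so calls were more frequent over all genes too. In the main fits, which used every library and the filter on low counts, another 22 of the 40 were not tested. *HAPLN3* was tested there only for the difference. Among these genes are 14 of the 15 matrix binders. *LYVE1*, the hyaluronan receptor of lymphatic endothelium, and *TNFAIP6*, which transfers heavy chains onto hyaluronan, were at 0 counts in all 12 libraries.

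Enzymes that supply UDP-sugars moved in both directions. *UGDH*, which makes UDP-glucuronic acid, stood at 451, 455 and 509 CPM in siBACH1, against 238, 243 and 231 CPM in siCont. It stood at 294, 319.8 and 326 CPM in sgBACH1, against 158, 186 and 165 CPM in sgCont. The groups were separate in both experiments and *UGDH* rose by 0.98 ± 0.07 and by 0.88 ± 0.08 on the log2 scale (SE, edgeR adjusted p = 2.19e-05 and 5.17e-09). The difference between these responses was 0.11 ± 0.11 (adjusted p = 0.542).

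The hexosamine branch makes UDP-*N*-acetylglucosamine. *UAP1*, its last enzyme, stood at 22.1, 24.6 and 28.3 CPM in siBACH1, against 56.3, 68.1 and 64.0 CPM in siCont. It fell by 1.34 ± 0.12 on the log2 scale (SE, edgeR adjusted p = 6.64e-05). It stood between 47.7 and 60.6 CPM in sgBACH1 and between 53.4 and 68.2 CPM in sgCont, where it was not called (-0.15 ± 0.12), and its 2 responses differed (adjusted p = 0.000124). *GFPT1*, the rate-limiting first enzyme, stood at 70.2, 72.4 and 82.2 CPM in siBACH1, against 109, 390.2 and 115 CPM in siCont. It fell by 1.46 ± 0.43 (adjusted p = 0.0356), and the log2 fold change was -0.59 without siCont replicate 2 (adjusted p = 6.36e-07). It was called in 3 of 6 fits with 1 library left out. In the knockout *GFPT1* did not pass (0.05 ± 0.09). *AMDHD2*, which runs the branch backwards by removing acetyl groups, fell by 0.94 ± 0.16 in sgBACH1 (adjusted p = 6.35e-05), to 16.1 ± 1.86 CPM against 30.8 ± 2.87 CPM in sgCont (SD, n = 3 each). In siBACH1 it was not called (0.26 ± 0.13), and the responses differed by 1.21 ± 0.20 (adjusted p = 0.000265). Named after their values were seen, *GNPNAT1*, an acetyltransferase of the branch, fell by 0.44 ± 0.09 in siBACH1, *NAGK*, a kinase that salvages the free sugar, rose by 0.49 ± 0.14, and *UGP2*, which makes UDP-glucose, rose by 0.31 ± 0.09. With 1 library left out, *GNPNAT1* was called in 6 of 6 fits, and *NAGK* and *UGP2* in 1 of 6 each, that without siCont replicate 2. *PGM3*, a mutase of the branch, was not called (-0.56 ± 0.20, adjusted p = 0.0688). Over the 8 tested genes of sugar supply 3 rose and 3 fell in siBACH1, and 1 rose and 1 fell in sgBACH1. Among all tested genes 10.9% rose and 13.0% fell in siBACH1, and 11.3% rose and 12.3% fell in sgBACH1.

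Of 4 proteins that join CD44 to the actin cytoskeleton or limit this link, 2 fell in siBACH1 and 2 in sgBACH1. Among all tested genes 13.0% and 12.3% fell. *RDX*, which encodes radixin, stood at 48.0, 41.2 and 50.3 CPM in siBACH1, against 104, 89.1 and 107 CPM in siCont. It fell by 1.11 ± 0.10 on the log2 scale (SE, edgeR adjusted p = 9.75e-05), and was not called in sgBACH1 (-0.04 ± 0.10). The difference of its responses was -1.07 ± 0.14 (adjusted p = 3.19e-05). *EZR*, which encodes ezrin, fell by 0.68 ± 0.18 in siBACH1 and by 0.34 ± 0.06 in sgBACH1 (adjusted p = 0.0209 and 0.000201), and the siRNA value was -0.40 without siCont replicate 2, with calls in 3 of 6 fits that left out 1 library. *NF2*, which encodes merlin, a tumour suppressor that also binds CD44, fell by 0.52 ± 0.08 in sgBACH1 (adjusted p = 3.38e-05) and was not called in siBACH1 (0.12 ± 0.08), with a difference of 0.65 ± 0.12 (adjusted p = 0.000539). *MSN*, which encodes moesin and is named after its values were seen, was called in neither experiment (log2 0.23 ± 0.09 in siBACH1 and 0.03 ± 0.08 in sgBACH1, adjusted p = 0.081 and 0.873). Without siCont replicate 2 its siRNA value was 0.30 (adjusted p = 0.000316). *VCAN*, the hyaluronan-binding proteoglycan versican, was the one matrix binder tested within each experiment in the main fits. It stood at 808, 787 and 831 CPM in siBACH1, against 1385, 1597 and 1491 CPM in siCont, and fell by 0.89 ± 0.07 (adjusted p = 4.99e-05). In the knockout the log2 fold change was 0.05 ± 0.06, and the responses differed by -0.93 ± 0.09 (adjusted p = 1.97e-06). *TLR4*, an innate receptor for which hyaluronan fragments are reported as ligands, fell by 0.58 ± 0.15 in sgBACH1 (adjusted p = 0.00684), to 18.4 ± 1.55 CPM against 27.4 ± 1.49 CPM in sgCont (SD, n = 3 each). In siBACH1 it was not called (-0.14 ± 0.17), except without siCont replicate 2 (-0.33, adjusted p = 0.0245). Of the lysosomal glycosidases, also named after their values were seen, *GUSB* (beta-glucuronidase) rose by 0.32 ± 0.09 in siBACH1 and by 0.50 ± 0.10 in sgBACH1, and *HEXA* fell by 0.49 ± 0.14 in sgBACH1. With 1 library left out, the siRNA call of *GUSB* was kept in 2 of 6 fits and the knockout call of *HEXA* in 4 of 6.

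**Figure D4:**
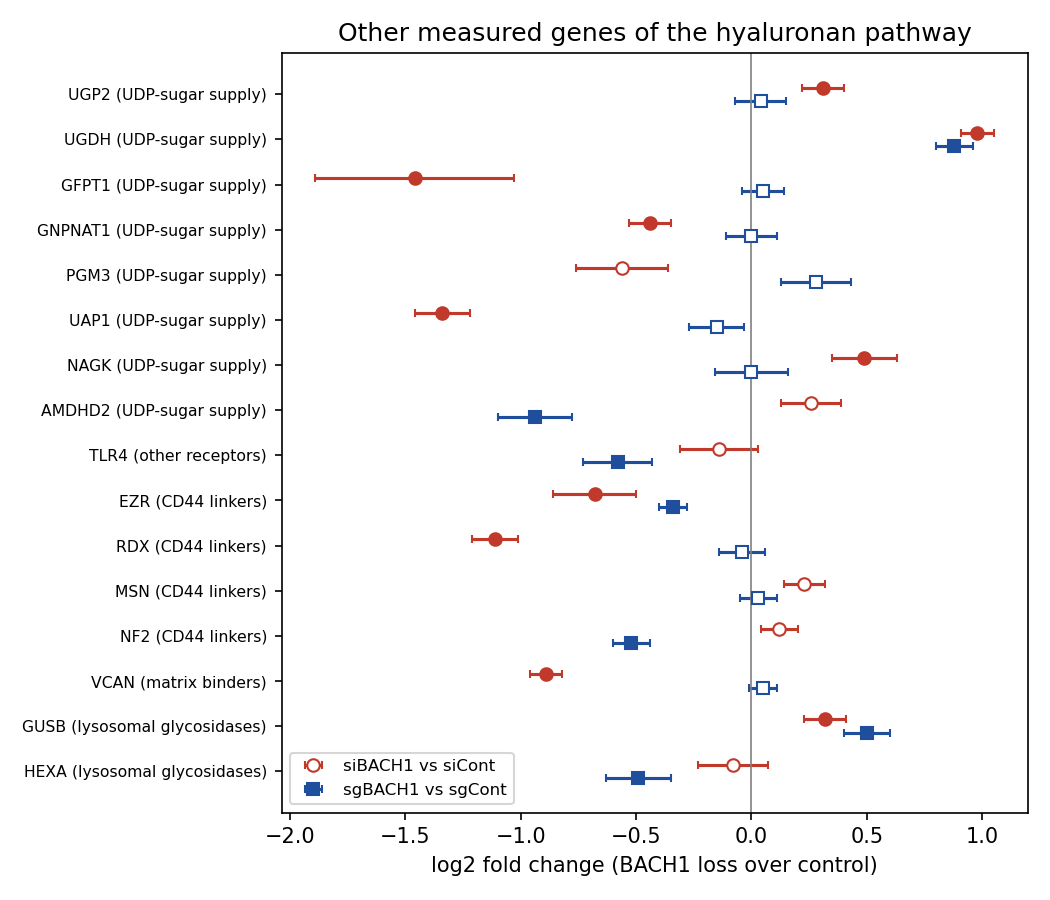
Log2 fold change with its standard error for other pathway genes tested in both experiments, by role. Filled symbols passed an adjusted p below 0.05. *UGDH* lies to the right for both methods, at 0.98 and 0.88, while *UAP1*, *RDX* and *VCAN* passed for the siRNA alone, to the left at -1.34, -1.11 and -0.89.

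Falls with the siRNA were unevenly spread over genes by a 7-base sequence in the 3′ UTR, AACATTA or ACATTAA. The length of the 3′ UTR was not taken into account. The sequence was taken from earlier results of these data, so this spread describes them and is no independent evidence. It stood in an annotated 3′ UTR of 57.6% of genes that fell in siBACH1, of 23.7% of those not called and of 15.7% of those that rose, where 27.8% of 11667 tested genes with such a region had it. Among the hyaluronan genes it stood in *CD44*, *HAS3*, *CEMIP* and *CEMIP2*, 4 of 9. Their siRNA log2 fold changes were -0.42, -0.52, -0.74 and 0.02, and of these *CD44* alone was called. Those of the members without it were -0.41 for *HYAL1*, -0.20 for *HYAL2*, -0.18 for *HAS2*, -0.05 for *HMMR* and 0.35 for *HYAL3*, none of them called. The part of this sequence in any of the siRNA values was not tested.

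The genes around each member on its chromosome had median changes near 0. Over the 25 tested genes on either side, the median log2 fold change lay between -0.13 and 0.14 in siBACH1 and between -0.07 and 0.07 in sgBACH1. Around *CEMIP* it was 0.07 in sgBACH1, with 4 of 50 neighbours rising and 2 falling, where 11.3% of all tested genes rose and 12.3% fell. The most rises were around *HAS3* in siBACH1 (median 0.14), with 15 of 50 rising and 5 falling. The most falls were around *CD44* in siBACH1 (median -0.05), with 5 of 50 rising and 11 falling. Among all tested genes 10.9% rose and 13.0% fell in siBACH1. The exons of *CEMIP* share 224 bases with *MESD* on the opposite strand and those of *HAS3* share 365 bases with *CHTF8*, and no source used here states whether counting used strand. Neither neighbour was called in sgBACH1, at -0.09 ± 0.12 for *MESD* and -0.07 ± 0.10 for *CHTF8* (SE). Exons of *HAS2* overlap those of *HAS2-AS1* (201 bases, 161 counts over all libraries beside 3848 for *HAS2*). On the same strand, exons of *HYAL2* share 509 bases with *TUSC2*, and those of *HYAL3* share 248 bases with *NAA80* and 43 with *IFRD2*, so counts of these genes are uncertain. Of these same-strand neighbours *NAA80* alone was called, rising by 0.84 ± 0.24 in siBACH1 (edgeR adjusted p = 0.0311). In sgBACH1 its value was 0.19 ± 0.33. *NAA80* had 1300 counts over all libraries beside 497 for *HYAL3*.

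The profiles over the 12 libraries most like those of the genes with a log2 fold change over 1 in size in either experiment, called or not, were found by the root mean square distance of log2 CPM, each gene centred on its own mean. For *CEMIP* they were *MUC5B*, a gel-forming mucin (distance 0.97, log2 fold change 5.74 in sgBACH1), *REG4*, a secreted lectin (1.30, 3.15), and *ZNF469*, a zinc finger gene (1.32, 4.61). *MUC5B* averaged 1.39 CPM in siBACH1 and 6.92 CPM in siCont. For *HAS2* they were *HSD11B2*, which inactivates cortisol (0.14), *TNFRSF19*, a receptor of the tumour necrosis factor family (0.17), and *TSC22D1*, a leucine zipper protein (0.17). For *HAS3* they were *PPM1N* (0.25), *IFT74* (0.26) and *SMIM14* (0.26), and for *HYAL1*, whose 1.22 was not called, they were *SNORA80D* (0.35), *ZNF185* (0.37) and *NUP62CL* (0.39). Smaller distances mean closer profiles among the neighbours of the same gene. Profiles were centred but not scaled to a common spread, so the distance grows with the size of a gene's own changes. Distances to *CEMIP* and distances to *HAS2* therefore cannot be compared.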

How the data were processed

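The authors deposited unnormalised counts of reads per gene, with separate tables for the siRNA and the knockout experiment. HTSeq 0.9.1, SAMtools and genome build hg19 are named in the submitters' processing notes. Aligner, counting mode and use of strand: not given in the sources used here. Per the labels' protocols, rRNA-depleted total RNA was sequenced on an Ion Proton. Every column matched a sample by its label, and of 57820 identifiers 51996 took a symbol from a table of current gene names.

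Counts were tested with edgeR 4.0.16 (R 4.3.3): TMM scaling, genes kept by filterByExpr (minimum count 10), and a two-sided quasi-likelihood test. P-values were adjusted by Benjamini-Hochberg over every gene tested and called below 0.05. Each experiment was fitted alone, and the difference of responses in 1 fit of 12 libraries. The standard error is the log2 fold change divided by the square root of F. CPM are counts scaled by TMM over the 12 libraries, and per-length levels divide counts by merged GENCODE 29 exon length (GRCh38) and scale them to 1 sum per library, without TMM. Positions and promoter windows are those of GRCh38, and no hg19 coordinate was used. The steps were tested on simulated counts with a common dispersion and no library that stood apart. That test therefore does not cover a library such as siCont replicate 2. Deviations from the group means correlated at -0.0169 to 0.0561 between same-numbered libraries of an experiment. Between differently numbered libraries they correlated at -0.0623 to 0.0317. All of these are small, and they cannot show whether equal numbers share a culture or a day.

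The genes, lists and tests were chosen with earlier results of these data known. Other pathway genes are named where they were called with a log2 fold change of at least 0.5 in size in either experiment or were at 0 in all libraries. One gene counted among the other pathway genes is not reported here. Of the mitosis genes the 3 largest called changes per experiment are named. Nearest profiles were sought among genes averaging at least 1 in log2 CPM (prior count 1). Alternatives were other scaling (RLE, upper quartile), no filter, DESeq2 1.42.0, limma-voom (limma 3.58.1), a replicate block, a fit of all libraries and leaving out each library. Leaving out libraries for the other pathway and mitosis genes was added after seeing the data.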

Additional observations from a re-analysis of the deposited data

Results flagged for a closer look

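The response of 3 hyaluronan genes differed between the siRNA and the knockout by the test of the difference itself, given as the siRNA log2 fold change minus the knockout log2 fold change. The difference was -6.76 for *CEMIP*, where all 3 sgBACH1 libraries were above all 3 sgCont libraries and the siBACH1 and siCont libraries overlapped. It was -1.99 for *HAS3*, higher in 3 of 3 sgBACH1 libraries and overlapping in the siRNA experiment. It was -1.24 for *HAS2*, higher in 3 of 3 sgBACH1 libraries and lower in 3 of 3 siBACH1 libraries than in any of their controls. The experiments differ both in the way BACH1 was lowered and in their controls, and these cannot be told apart.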

How the results depend on the processing

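Of 396 alternative values of single hyaluronan genes, 360 kept their direction and their side of the threshold. The *CEMIP*, *HAS2*, *HAS3* and *HYAL2* calls in the knockout held under every alternative, as did the differences of *CEMIP*, *HAS2* and *HAS3*. The number of hyaluronan genes called in siBACH1 was 0 with upper quartile scaling, 2 without the filter and 2 with DESeq2 (*CD44* and *HAS3*, with *HAS3* at adjusted p = 0.0039 and 0.048), and it ranged from 0 to 2 with 1 library left out. The *HMMR* call in the knockout was also lost in the fit of all 12 libraries (adjusted p = 0.0962), and that of *CD44* in siBACH1 with upper quartile scaling (adjusted p = 0.0514). Leaving out 1 library gave between 2002 and 5121 called genes in siBACH1, the highest without siCont replicate 2. Of the 40 other pathway genes, 17 of them tested with every library, it gave between 5 and 12 in siBACH1. Of the 20 mitosis genes it gave between 5 and 14 in siBACH1 and between 2 and 5 in sgBACH1. Over all genes it gave between 2500 and 3586 in sgBACH1. Only values near 0 and never called changed sign, each with 1 library left out: *CEMIP2* ranged from -0.03 to 0.06 in siBACH1, from -0.11 to 0.11 in sgBACH1 and from -0.09 to 0.14 in the difference, *HYAL3* from -0.05 to 0.47 in sgBACH1 and from -0.16 to 0.84 in the difference, and *HMMR* from -0.15 to 0.07 in siBACH1. The cause of these changes was not tested. With the replicate block 1 hyaluronan gene was called in siBACH1, 5 in sgBACH1 and 3 in the difference, and 3196, 3530 and 3513 genes in all. The block changed no call of a hyaluronan gene. *HYAL1*, *HYAL3* and the siRNA values of *CEMIP* rest on few counts per library, and the siRNA value of *CEMIP* ran from -1.27 to -0.34 with 1 library left out.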
